A study of Saccharomyces cerevisiae with 16 samples.

Results

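The genes described here, 10 in all, were chosen by name for their place in the loading of modifiers onto the replication clamp PCNA in budding yeast: POL30, RAD6, RAD18, RAD5, MMS2, UBC13, UBC9, SIZ1, ELG1 and SRS2. The choice was made with earlier results of these data known. All 10 were found among the 4073 genes with a symbol on the array, each as 2 spots, and SRS2 is listed there under its older symbol HPR5. The 16 two-colour arrays compared messenger RNA of wild type cells and of cells carrying esa1-L254P::NatRMX4, a point allele of the catalytic subunit of the histone acetyltransferase NuA4, all in the W303 background. G1 cells had been held in α-factor, the mating pheromone that arrests the cycle before replication, for 1 h and then kept for 1 h with or without 0.05% methyl methanesulfonate (MMS), a DNA-alkylating agent. S phase cells had been held in α-factor for 2 h, washed into YPAD medium and released for 1 h with or without 0.05% MMS. Every culture had therefore passed through α-factor, controls included, and the mutant also carries the marker named in its genotype. The level of ESA1 RNA is no check of the genotype, because the allele is a point change.

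PCNA, the product of POL30, is a ring that slides along DNA and tethers the replicative polymerases and many repair factors. When forks stall at damaged bases, the Rad6 conjugating enzyme and the Rad18 ligase attach ubiquitin to a conserved lysine of PCNA, which favours synthesis by translesion polymerases. Rad5 with the Mms2-Ubc13 pair extends that ubiquitin into a chain, which opens an error-free route past the lesion. In S phase Ubc9 and Siz1 attach SUMO to PCNA, SUMO-modified PCNA recruits the Srs2 helicase, and an Elg1-containing clamp unloader removes PCNA from DNA. These steps act on protein, and the arrays measured only the transcripts of the genes involved.

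The measure was a log2 ratio of 2 RNAs hybridised to the same array. Of the 8 comparisons, 4 set MMS-treated against untreated cells, for both strains in G1 and in S. The other 4 set esa1-L254P against wild type, for both phases with and without MMS, and no array compared G1 with S. Each comparison had 2 arrays with the dyes exchanged. The array with the test RNA (MMS, or esa1-L254P) in Cy5 is called the Cy5 array below and its partner the Cy3 array. The sign of the partner was turned, so a positive value means higher with MMS or in the mutant. The ratio was read as Cy5 over Cy3 and as base 2, and neither is stated in the sources used here. With that reading MAG1, a DNA glycosylase gene known to respond to alkylation, was higher with MMS in all 4 comparisons (0.86 to 1.12), and RNR3, a damage-inducible ribonucleotide reductase gene, was higher in S (1.24 in wild type and 0.99 in the mutant). In G1 RNR3 was lower in wild type (-0.25, adjusted p = 0.0316) and gave 0.0037 in the mutant, so the sign check rests on MAG1. A gene was called where its p from a limma fit of all 16 arrays, adjusted by Benjamini-Hochberg over all 4073 genes, was under 0.05, and ± is the standard error of that fit (n = 2 arrays). Whether the 2 arrays of a comparison held separate cultures is not given, so the p-values measure the spread between arrays, which may be technical.

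The 2 arrays of a comparison differed by dye as well as by replicate number. Before the sign was turned, the arrays correlated negatively across genes, as values of exchanged dyes do, in 6 of 8 comparisons (-0.163 to -0.716). In esa1-L254P over wild type with MMS they correlated at 0.215 in G1 and 0.612 in S, so the direction of those 2 comparisons rests on the dyes in the labels. After the sign was turned those pairs opposed each other across genes (-0.215 and -0.612), so their means partly cancel. Of all genes, 9.80% were called in the G1 pair and 0.123% in the S pair. Whether 1 of those arrays carries a wrong dye label was not tested. These arrays also enter every difference between the MMS responses of the 2 strains given below. The mean difference between Cy5 and Cy3 arrays passed the test for 53.0% of all genes and for 3 of the 10 studied here. POL30 read 0.81 higher on the Cy5 arrays (adjusted p = 0.0189) and SRS2 read 0.26 higher (adjusted p = 0.000234), each in 8 of 8 comparisons. RAD5 read lower by a difference of -0.57 (adjusted p = 4.12e-06), also in 8 of 8. A second fit therefore held the replicate number, which is the dye orientation, as a block. It leaves each mean as it is and narrows the error, and its p is given wherever it changes a call of the 10 genes. Of the 80 values (10 genes in 8 comparisons), 15 were called without the block and 33 with it, and in all 15 both arrays lay on the same side of 0.

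Over the mean of the 4 MMS comparisons, POL30 and UBC13 rose and UBC9 and SIZ1 fell, so 4 of 10 were called where 54.9% of all genes were (7 of 10 and 72.7% with the block). In the separate comparisons 2 of 10 were called in wild type G1 (36.0% of all genes), 2 in esa1-L254P G1 (27.2%), 2 in wild type S (38.3%) and 3 in esa1-L254P S (33.1%). With the block the counts were 5 (56.3%), 4 (51.3%), 6 (58.3%) and 7 (55.7%). The 10 genes were thus called no more often than genes at large in any of these comparisons without the block. Their medians lay near 0, from -0.10 to 0.10, beside medians over all genes of -0.011 to 0.0056.

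**Figure D1:**
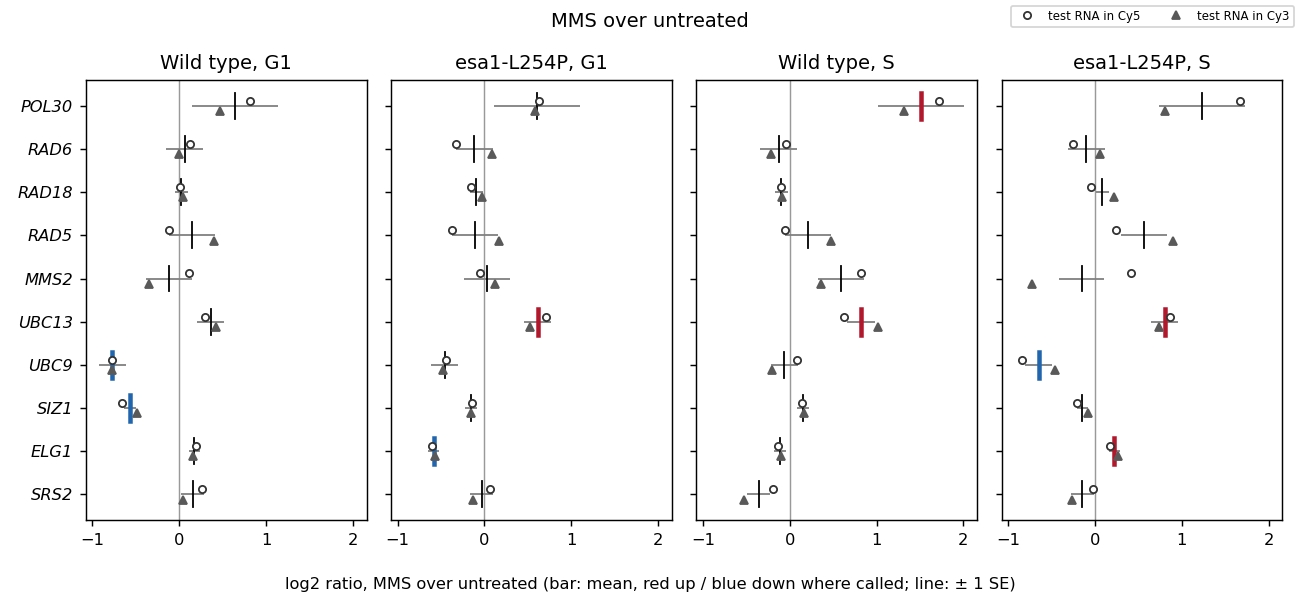
Log2 ratio of MMS over untreated for the 10 genes in the 4 strain and phase combinations. Circles and triangles are the Cy5 and Cy3 arrays, vertical bars their mean (red or blue where called up or down), and horizontal lines ± 1 SE; POL30 in wild type S stands farthest right, at a mean of 1.52.

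POL30, the clamp itself, had the highest ratios of the set in S phase. In wild type S cells the Cy5 array gave 1.71 and the Cy3 array 1.32, a mean of 1.52 ± 0.50 (2.86-fold, 95% interval 0.41 to 2.63, adjusted p = 0.0353). Both arrays were far above 0, and 99.3% of all genes had a lower mean ratio in that comparison. In esa1-L254P S cells the arrays gave 1.67 and 0.81, a mean of 1.24 (adjusted p = 0.0839, and 0.012 with the block). In G1 the ratios were smaller but again above 0 on every array. Wild type G1 gave 0.82 and 0.47, a mean of 0.64 (adjusted p = 0.353, 0.135 with the block), and esa1-L254P G1 gave 0.63 and 0.58, a mean of 0.60 (adjusted p = 0.406, 0.17 with the block).

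All 8 MMS arrays thus placed POL30 above 0, and over the 4 comparisons it rose by a mean of 1.00 ± 0.25 (adjusted p = 0.00644). The error of POL30 was the largest of the 10 genes, and its arrays lay farthest apart in esa1-L254P over wild type in S with MMS, at 0.85 and -1.72. In a fit without the 4 arrays that compared the strains in MMS, chosen after seeing the data, POL30 was called in S in wild type (adjusted p = 0.00254) and in the mutant (adjusted p = 0.00746). It was still not called in G1 in that fit (adjusted p = 0.0803 in wild type and 0.113 in the mutant). The wild type S call was lost without the Cy5 array (value 1.32) and without the Cy3 array (value 1.71). Leaving out 1 array of a pair, here and below, leaves 1 array for that comparison and a wider error. Such a loss need not mean that the arrays disagree. The wild type S call was also lost with arrays scaled to equal spread (1.22, adjusted p = 0.273) and with quantile normalization (adjusted p = 0.0789). The rise over 4 comparisons was lost with equal spread (0.84, adjusted p = 0.088).

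The S response of POL30 exceeded the G1 response by 0.75 ± 0.50 over both strains, a difference not called (adjusted p = 0.383, 0.121 with the block). The mutant response minus the wild type response is, here and below, the mean of 2 routes. The first is the difference of the MMS responses, and the second the strain ratio with MMS minus that without. For POL30 the mean was -0.54 in S (interval -1.65 to 0.57, adjusted p = 0.498), from -0.28 and -0.80. In G1 it was -0.093 (adjusted p = 0.893). Between strains POL30 gave arrays on opposite sides of 0 in all 4 comparisons, with means of 0.078, -0.068, 0.37 and -0.43, none called. These arrays left the strain difference of POL30 unresolved, with intervals over 2 log2 units wide.

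RAD6 and RAD18 encode the enzyme and the ligase that put the ubiquitin on PCNA, and neither was called in an MMS comparison with or without the block. RAD6 had means between -0.22 and 0.061 in all 8 comparisons (each ± 0.21). Its arrays fell on opposite sides of 0 in 5 of 8 comparisons. Over the 4 MMS comparisons its mean was -0.070 (interval -0.31 to 0.17).

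RAD18 was measured more tightly (each mean ± 0.075). With MMS it read 0.0054 and 0.039 in wild type G1 (mean 0.022) and -0.16 and -0.033 in mutant G1 (mean -0.096). In S it read -0.10 and -0.093 in wild type (mean -0.098) and -0.047 and 0.21 in the mutant (mean 0.083). None of the 4 was called, and the mean over them was -0.022 (interval -0.11 to 0.061).

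RAD18 was 1 of the 2 genes of the set called lower in the mutant in untreated S cells. The arrays gave -0.26 and -0.24, a mean of -0.25 ± 0.075 (adjusted p = 0.0419), and the call was lost without the Cy5 array (adjusted p = 0.269), without the Cy3 array (0.233) and in 4 further settings, among them the last spot alone and quantile normalization. In untreated G1 both arrays lay above 0, at 0.16 and 0.21 (mean 0.18, adjusted p = 0.115, and 0.0491 with the block). With MMS the strain ratios were -0.060 in G1 and 0.037 in S. The response to MMS in the mutant minus that in wild type was -0.18 in G1 (adjusted p = 0.0774, 0.038 with the block) and 0.23 in S (adjusted p = 0.0518, 0.0189 with the block).

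UBC13, the ubiquitin-conjugating subunit of the chain-forming pair, rose with MMS in 3 of 4 comparisons. Wild type S gave 0.62 and 1.02, a mean of 0.82 ± 0.16 (1.77-fold, adjusted p = 0.00261), and esa1-L254P S gave 0.86 and 0.74, a mean of 0.80 (adjusted p = 0.00358). The mutant in G1 gave 0.70 and 0.52, a mean of 0.61 (adjusted p = 0.0164). Wild type G1 gave 0.30 and 0.43, a mean of 0.36, not called (adjusted p = 0.0995, 0.0624 with the block). All 8 arrays were above 0, and over the 4 comparisons UBC13 rose by 0.65 ± 0.078 (adjusted p = 7.61e-05), a call kept in all 18 alternative settings. Fitting each comparison alone was tried for single comparisons only, here and below, not for means or differences of comparisons. Such a fit leaves 1 residual degree of freedom, so a call lost in it need not mean an unsteady value.

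The single comparisons of UBC13 were less firm. The wild type S call was lost without the Cy3 array (adjusted p = 0.0797), that of mutant S without the Cy5 array (0.0538), and those of both mutant comparisons when each was fitted alone (0.163 in S and 0.21 in G1). The mutant G1 call was also lost without its Cy5 array (0.167), without its Cy3 array (0.089) and with arrays scaled to equal spread (0.0692). The S response was larger than the G1 response by 0.46 in wild type (adjusted p = 0.149) and 0.19 in the mutant (adjusted p = 0.728), neither of which passed. The mutant response minus the wild type response was 0.20 in G1 (interval -0.15 to 0.55) and 0.053 in S (interval -0.30 to 0.40). Between strains UBC13 had means of 0.16, 0.31, 0.038 and 0.16, none called (lowest adjusted p = 0.267, in G1 with MMS).

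MMS2, the partner of UBC13 that resembles a conjugating enzyme but lacks the catalytic cysteine, was not called anywhere without the block. In wild type S both arrays were above 0, at 0.82 and 0.36 (mean 0.59 ± 0.26, adjusted p = 0.103, and 0.032 with the block). In mutant S they were on opposite sides, at 0.41 and -0.72 (mean -0.15). In G1 they gave 0.11 and -0.35 in wild type and -0.052 and 0.12 in the mutant, means of -0.12 and 0.032. Of the pair, then, UBC13 was above 0 on 8 of 8 MMS arrays and MMS2 on 5 of 8.

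RAD5 encodes the ligase and helicase that works with Mms2-Ubc13. The Cy5 and Cy3 arrays gave -0.050 and 0.48 in wild type S (mean 0.21 ± 0.26) and 0.25 and 0.89 in mutant S (mean 0.57). In G1 they gave -0.12 and 0.40 in wild type (mean 0.14) and -0.38 and 0.17 in the mutant (mean -0.10). The Cy5 array was the lower in every comparison, by 0.47 to 0.71, and without the block no RAD5 value was called.

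With the block the error of a RAD5 mean was 0.054, and 6 of 8 comparisons were called. The blocked adjusted p was 3.16e-05 in mutant S (0.131 without the block), 0.00746 in wild type S (0.575) and 0.0459 in wild type G1 (0.725). The strain ratios gave 0.23 in untreated G1 (0.605, blocked 0.00701), -0.28 in G1 with MMS (0.606, blocked 0.005) and -0.25 in untreated S (0.603, blocked 0.00548). The mean over the 4 MMS comparisons was 0.21 (0.214, blocked 8.64e-05). The S response minus the G1 response was 0.67 in the mutant (0.337, blocked 0.00035) and 0.37 over both strains (0.431, blocked 0.000767). For RAD5 the call therefore depended on whether the dye orientation was held as a term.

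UBC9, the SUMO-conjugating enzyme gene, fell with MMS in 2 of 4 comparisons. Wild type G1 gave -0.77 on both arrays, a mean of -0.77 ± 0.16 (1.71-fold lower, adjusted p = 0.00395). The mutant in S gave -0.84 and -0.46, a mean of -0.65 (adjusted p = 0.0105). The mutant in G1 gave -0.44 and -0.47, a mean of -0.46 (adjusted p = 0.0544, and 0.0335 with the block). Wild type S differed from these, with arrays at 0.081 and -0.21 and a mean of -0.064 (adjusted p = 0.785). The wild type G1 call was lost without the Cy5 array (adjusted p = 0.0593) and with quantile normalization (0.0841), and the mutant S call without the Cy5 array (0.17) and in 3 other settings.

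Over the 4 comparisons UBC9 fell by a mean of -0.49 ± 0.078 (adjusted p = 0.000491), kept in all 18 alternative settings. In wild type the S response lay above the G1 response by 0.71 ± 0.22 (adjusted p = 0.0344), a call lost in 7 of 14 alternative settings, among them without any 1 of its 4 arrays (0.0614 to 0.19). In the mutant that difference was -0.19 (adjusted p = 0.728). The mutant response minus the wild type response was 0.42 in G1 (adjusted p = 0.0537, 0.0384 with the block) and -0.45 in S (adjusted p = 0.0663, 0.0401 with the block).

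SIZ1, the SUMO ligase gene for PCNA, fell in wild type G1 with MMS. The arrays gave -0.66 and -0.48, a mean of -0.57 ± 0.066 (1.48-fold lower, adjusted p = 0.000191), kept in all 13 alternative settings. The other responses were small: -0.15 and -0.16 in mutant G1 (mean -0.15, adjusted p = 0.119, blocked 0.0423), 0.14 and 0.17 in wild type S (mean 0.15, adjusted p = 0.0959, blocked 0.0366), and -0.21 and -0.084 in mutant S (mean -0.15, adjusted p = 0.124, blocked 0.0477). In wild type, SIZ1 was thus below 0 in G1 and above 0 in S on every array. That difference between phases was 0.72 ± 0.094 (adjusted p = 0.000361), and in the mutant it was 0.0076 (adjusted p = 0.982).

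The SIZ1 response itself differed between strains in opposite directions in the 2 phases. The mutant response lay above the wild type response by 0.38 ± 0.066 in G1 (adjusted p = 0.00136, kept in all 17 settings) and below it, at -0.29, in S (adjusted p = 0.0124, lost in 1 of 17). Those 17 settings, here and for ELG1 below, left out the strain arrays with MMS only 1 at a time. UBC9 had mean differences of the same signs that passed with the block alone, as given above.

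ELG1, the large subunit of the clamp unloader, was called in 5 of 8 comparisons, more than any other gene of the set. With MMS in esa1-L254P G1 cells the arrays gave -0.61 and -0.56, a mean of -0.59 ± 0.067 (1.5-fold lower, adjusted p = 0.000381), lost when that comparison was fitted alone (0.21). In esa1-L254P S cells they gave 0.18 and 0.27, a mean of 0.22 (adjusted p = 0.0288), lost in 6 of 13 settings, among them without the Cy5 array (0.0824), without the Cy3 array (0.253) and on the first spot alone (0.12, adjusted p = 0.246). In wild type the signs were the other way round: 0.19 and 0.16 in G1 (mean 0.17, adjusted p = 0.0688, blocked 0.019) and -0.13 and -0.097 in S (mean -0.12, adjusted p = 0.214, blocked 0.0876). Each of the 4 pairs of arrays lay on 1 side of 0, fell within 0.093 of each other, and alternated in sign by strain and phase.

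The differences between those responses passed the test. The mutant response minus the wild type response was -0.73 ± 0.067 in G1 (adjusted p = 3.59e-05) and 0.36 in S (adjusted p = 0.00533), both kept in all 17 settings. The S response minus the G1 response was 0.81 ± 0.095 in the mutant (adjusted p = 0.00111, kept in all 14) and -0.29 in wild type (adjusted p = 0.0415, lost in 8 of 14, without any 1 of its 4 arrays among them, at 0.114 to 0.168). Because the sign alternated, the mean over the 4 MMS comparisons was only -0.076 (adjusted p = 0.0811, blocked 0.0264).

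SRS2, the helicase gene whose product binds SUMO-modified PCNA, was not called without the block. With MMS in wild type S the arrays gave -0.19 and -0.53, a mean of -0.36 ± 0.13 (adjusted p = 0.0552, and 0.00021 with the block). In mutant S they gave -0.021 and -0.27 (mean -0.14, adjusted p = 0.443, blocked 0.0308), in wild type G1 0.27 and 0.039 (mean 0.15, adjusted p = 0.41, blocked 0.024), and in mutant G1 0.065 and -0.13 (mean -0.032). All 4 arrays of S cells were below 0. The wild type response in S minus that in G1 was -0.51 (adjusted p = 0.0614, 0.000243 with the block). Over both strains that difference was -0.31 (adjusted p = 0.148, blocked 0.00116). The mutant response minus the wild type response in G1 was -0.15 (adjusted p = 0.386, blocked 0.0227). Over the 4 MMS comparisons the mean was -0.096 (adjusted p = 0.243, blocked 0.0057). Between strains SRS2 stayed within -0.10 and 0.036 in all 4 comparisons, with no call either way.

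The strain comparisons asked how the 10 transcripts differed in esa1-L254P at each phase and treatment. In untreated G1 cells 3 of 10 were called (21.4% of all genes, and 5 or 43.7% with the block): ELG1 was higher in the mutant and UBC9 and SIZ1 were lower. In untreated S cells 2 were called (20.8%, and 4 or 39.5% with the block), ELG1 and RAD18, both lower. In G1 with MMS ELG1 alone was called, lower in the mutant (9.80%, and 2 or 29.5% with the block). In S with MMS 0 of 10 were called by limma (0.123%, and 0 or 2.04% with the block), and 0 of 10 had an unadjusted p under 0.05 (1 with the block). The arrays of that comparison opposed each other across genes (r of -0.612 after the sign was turned). The lack of calls there therefore does not show that the strains were alike.

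**Figure D2:**
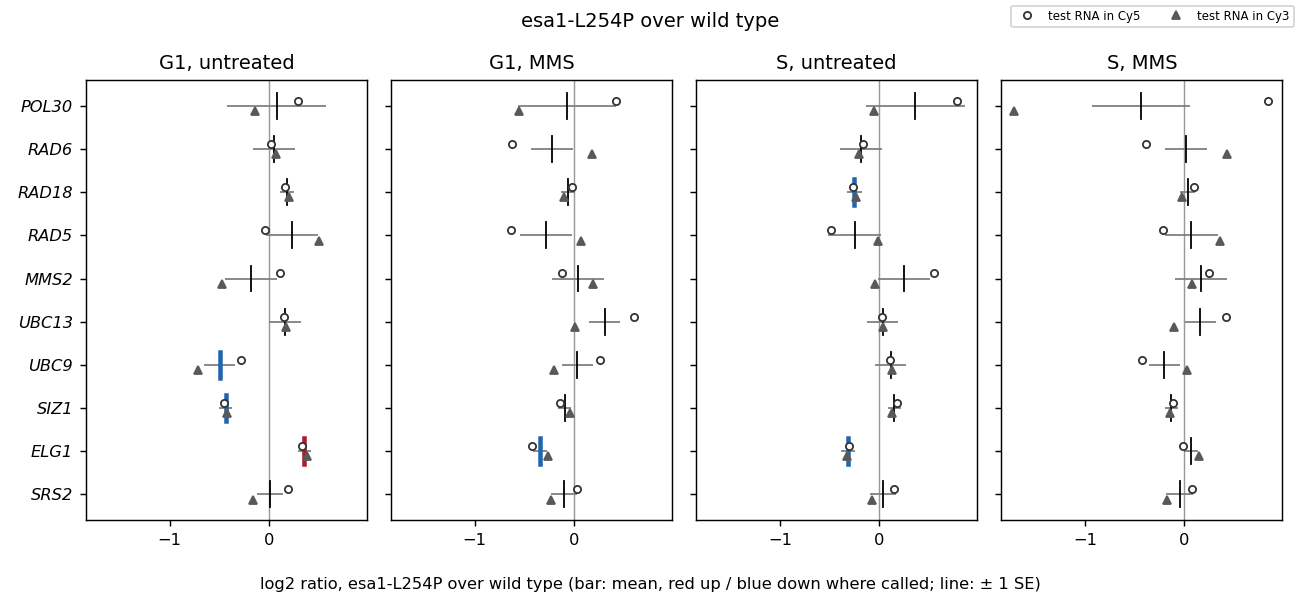
Log2 ratio of esa1-L254P over wild type for the 10 genes in the 4 phase and treatment combinations, drawn as in the plot of MMS responses. ELG1 lies above 0 in untreated G1 (0.36) and below 0 in G1 with MMS (-0.34) and in untreated S (-0.31), and the 2 POL30 arrays in S with MMS lie at 0.85 and -1.72.

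ELG1 was higher in untreated mutant G1 cells, with arrays at 0.33 and 0.39 and a mean of 0.36 ± 0.067 (adjusted p = 0.00489, lost without the Cy5 array at 0.0552, without the Cy3 array at 0.0885 and fitted alone). With MMS in G1 it was lower, at -0.42 and -0.26 with a mean of -0.34 (adjusted p = 0.0146, lost without the Cy5 array at 0.184, on the last spot and fitted alone). In untreated S it was lower as well, at -0.30 and -0.33 with a mean of -0.31 (adjusted p = 0.01, lost without the Cy5 array at 0.0956, without the Cy3 array at 0.128, on the last spot and fitted alone). In S with MMS the arrays, at -0.012 and 0.15, straddled 0.

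SIZ1 was lower in untreated mutant G1 cells, at -0.45 and -0.42, a mean of -0.44 ± 0.066 (adjusted p = 0.00172), lost when that comparison was fitted alone (0.233). UBC9 was lower there too, at -0.28 and -0.72, a mean of -0.50 ± 0.16 (adjusted p = 0.0484), lost in 7 of 13 settings, among them without the Cy5 array (0.0771) and without the Cy3 array (-0.28, adjusted p = 0.47). With MMS in G1 neither was called, at -0.091 for SIZ1 (adjusted p = 0.468) and 0.032 for UBC9 (adjusted p = 0.943). In untreated S they gave 0.16 (adjusted p = 0.136, blocked 0.0491) and 0.12 (adjusted p = 0.676), and in S with MMS -0.13 and -0.20, not called.

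The strain ratio of SIZ1 in S minus that in G1, averaged over treatments, was 0.28 ± 0.066 (adjusted p = 0.0412). It was the 1 call of 10 for that contrast, beside 6.14% of all genes (1 and 23.4% with the block), and it was lost in 12 of 17 settings, without any 1 of its 8 arrays among them (0.0687 to 0.136). The mean over all 4 strain comparisons called 0 of the 10 genes (5.52% of all genes, 1 of 10 at an unadjusted p under 0.05). With the block SIZ1 was called there, at -0.13 (adjusted p = 0.0125, against 0.0584 without the block, 19.7% of all genes).

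The 4 comparisons of a phase join the same 4 RNA conditions, so they are not independent. Whether they also used the same RNA samples is not given. Untreated wild type G1 RNA is the denominator both of the wild type MMS response and of the untreated strain ratio in G1, where SIZ1 gave -0.57 and -0.44, UBC9 -0.77 and -0.50, and ELG1 0.17 and 0.36. A high or low value of a gene in that condition would enter both ratios. The 4 comparisons can be set on 1 scale, with untreated wild type of the phase at 0. On it SIZ1 in G1 stood at -0.55 in wild type with MMS, -0.45 in the untreated mutant and -0.62 in the mutant with MMS (SE 0.051 to 0.059), so the 3 other conditions lay close together and apart from untreated wild type.

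UBC9 in G1 stood at -0.83, -0.44 and -0.85 in the same order. ELG1 in G1 stood at 0.16, 0.37 and -0.20 (SE 0.052 to 0.060), highest in the untreated mutant and lowest in the mutant with MMS. In S ELG1 stood at -0.13, -0.30 and -0.069 (SE 0.052 to 0.060), all below untreated wild type. The mutant with MMS lay about as far from untreated wild type as its SE, so that order was not resolved. POL30 in S stood at 1.65, 0.24 and 1.34, and UBC13 at 0.79, 0.074 and 0.91, each separating the treated from the untreated conditions.

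**Figure D3:**
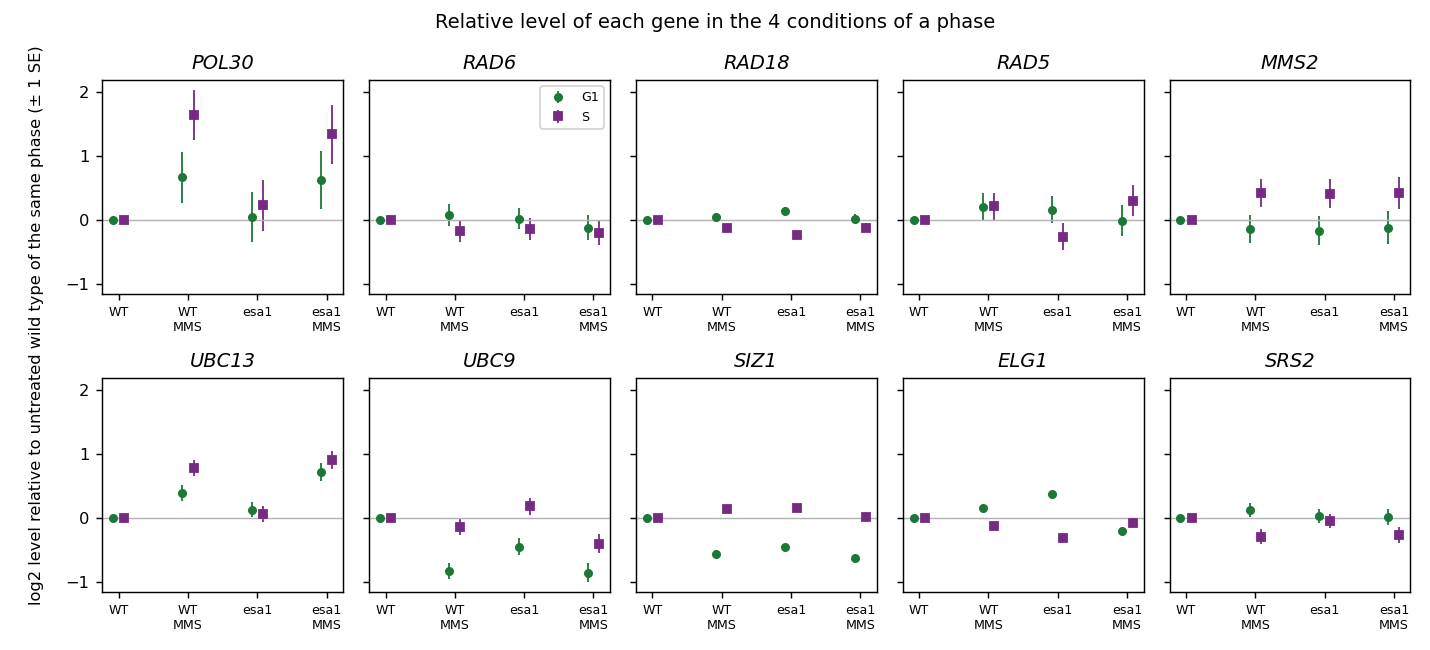
Log2 level of each gene in the 4 conditions of G1 (green circles) and S (purple squares), relative to untreated wild type of the same phase, which is 0 by construction, with ± 1 SE from the additive fit. POL30 in S lies at 1.65 and 1.34 in the treated cells, and SIZ1 in G1 lies between -0.45 and -0.62 in the 3 conditions other than untreated wild type.

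The strain difference of the MMS response can be formed from the MMS arrays or from the strain arrays, which are different hybridisations of the same conditions. If they held the same RNA, which is not given, agreement of the routes shows only that hybridisations agree. The mean of both routes, given above, counted their arrays as independent. For ELG1 in G1 the MMS arrays gave -0.76 and the strain arrays -0.70, and in S they gave 0.34 and 0.38. For SIZ1 in G1 they gave 0.42 and 0.34. Both routes differed for 0 of 4073 genes in either phase by limma. At an unadjusted p under 0.05 they differed for 9 genes in each phase (0 of the 10 here). With the block these were 61 in G1 and 72 in S (1 of the 10 in each). Such counts lie below 0.05 of all genes, the share that chance gives at that p. The error was thus wide for this check, which could miss a gap between the routes. The error of that check for POL30 was 0.99, so a gap such as that in S, -0.28 against -0.80, could not be resolved.

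**Figure D4:**
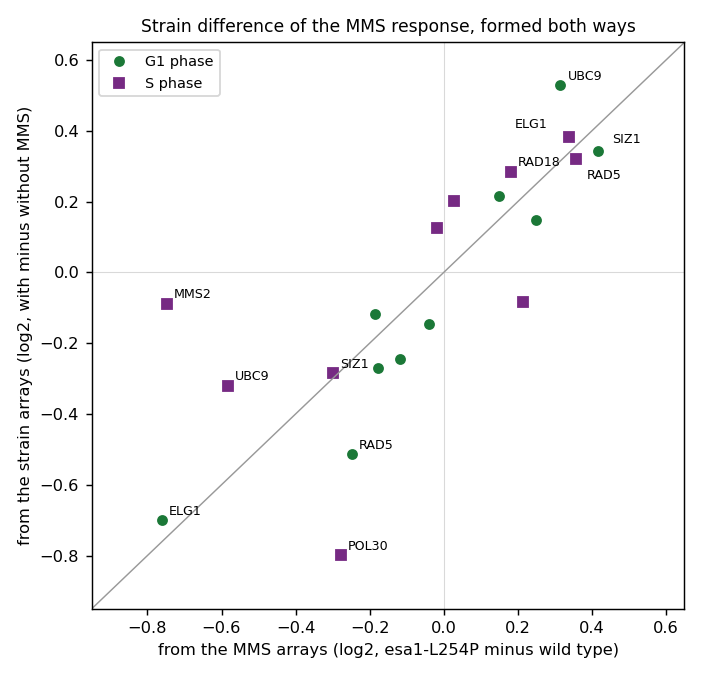
Mutant minus wild type MMS response of the 10 genes, from the MMS arrays (horizontal) and from the strain arrays (vertical), both log2, in G1 (green circles) and S (purple squares); the line marks equal values. ELG1 in G1, at -0.76 and -0.70, and SIZ1 in S lie near the line, and POL30 in S, at -0.28 and -0.80, lies off it.

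Tested between phases and strains, the set gave few calls. The wild type response differed between S and G1 for UBC9, SIZ1 and ELG1 (3 of 10, beside 32.2% of all genes; 4 and 52.1% with the block), and the mutant response for ELG1 (1 of 10, beside 9.55%; 2 and 27.0%). Averaged over strains it differed for SIZ1, by 0.37, and ELG1, by 0.26 (2 of 10, beside 16.3%, and 4 and 34.4% with the block). These averages joined unlike strains: 0.72 in wild type and 0.0076 in the mutant for SIZ1, and -0.29 and 0.81 for ELG1. The ELG1 call was lost without 7 of its 8 arrays in turn (0.0607 to 0.0897), the Cy5 array of mutant S being the exception. The mutant and wild type responses differed for SIZ1 and ELG1 both in G1 (beside 41.6% of all genes) and in S (beside 21.5%). With the block these became 6 of 10 in G1 (63.2%) and 5 of 10 in S (44.2%), RAD5 among them at -0.38 (adjusted p = 0.276, blocked 0.000227) and 0.34 (adjusted p = 0.42, blocked 0.00104). In bulk RNA a change in some cells and a smaller change in every cell cannot be told apart.

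Other genes of the pathway were grouped in lists, each described by its counts. The lists were chosen with earlier results of these data known, so their counts are a description and no independent test. Of all genes 18.1% rose and 17.9% fell with MMS in wild type G1, 13.3% and 13.9% in mutant G1, 19.1% and 19.2% in wild type S, and 16.3% and 16.8% in mutant S. Of 15 replication genes known to be transcribed at the G1 to S transition, 12 rose with MMS in wild type S and 12 in mutant S, with list medians of 0.78 and 0.74 beside -0.0088 and -0.011 over all genes. In wild type S they were led by the replication protein A subunit genes RFA2 (1.47) and RFA1 (1.32), the thymidylate synthase gene CDC21 (1.31) and the ribonucleotide reductase gene RNR1 (1.30). In mutant S they were led by RFA2 (1.67), RNR1 (1.20), the cohesin subunit gene MCD1 (0.95) and RFA1 (0.89). In G1 the same list gave 3 up and 3 down in wild type, and 1 up and 6 down in the mutant. POL30 is itself known as such a gene, and the position of the cells in the cycle was not measured on these arrays, so its part in the POL30 values was not tested.

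**Figure D5:**
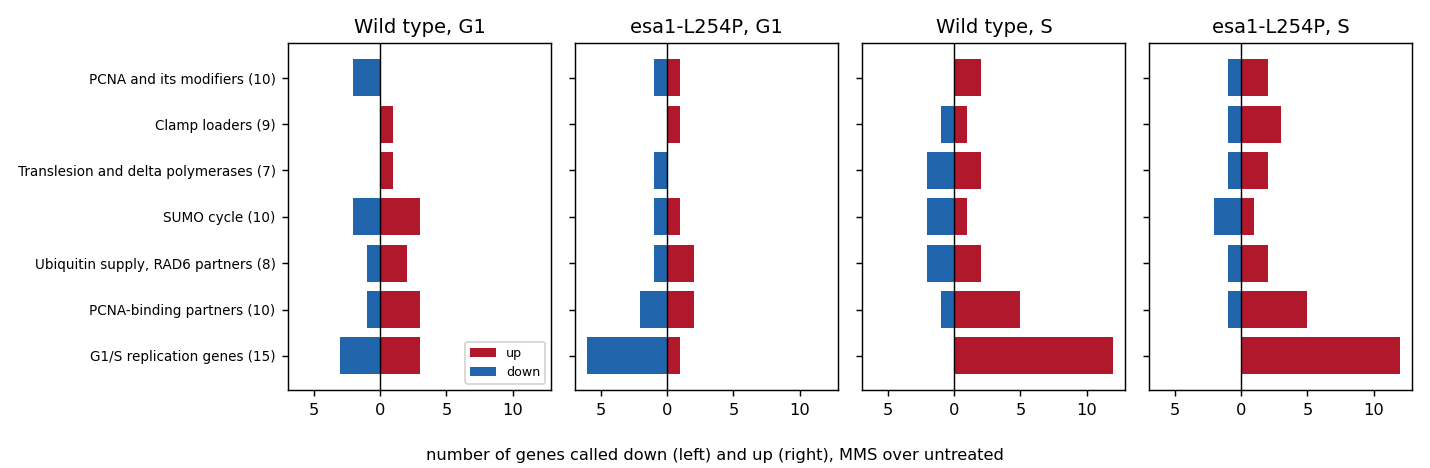
Number of genes called lower (left, blue) and higher (right, red) with MMS in each list, by strain and phase; list sizes are in brackets. In S the replication genes give 12 calls up and 0 down in both strains, and the 10 PCNA and modifier genes give 2 up and 0 down in wild type and 2 up and 1 down in the mutant.

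Of 10 genes for proteins that bind PCNA, 5 rose and 1 fell with MMS in S in each strain. In wild type S the flap endonuclease gene RAD27 rose by 1.02, the mismatch repair gene MSH6 by 0.94, the cohesin acetyltransferase gene ECO1 by 0.93 and the DNA ligase gene CDC9 by 0.71. The helicase gene RRM3 fell in all 4 MMS comparisons, at -0.44, -0.49, -0.70 and -0.99 (G1 wild type and mutant, then S). In G1, 3 rose and 1 fell in wild type, and 2 rose and 2 fell in the mutant, where RLF2, a chromatin assembly factor subunit gene, fell (-0.42) and had risen in wild type (0.61).

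The 9 genes of the clamp loaders gave 1 call up in each strain in G1, DCC1 at 0.51 and 0.32, a subunit of the alternative loader with Ctf18. In S, RFC4 rose (0.43 in both strains) and RFC1, the large subunit of the standard loader, fell (-0.22 and -0.26), with 1 up and 1 down in wild type and 3 up and 1 down in the mutant. ELG1, the large subunit of the unloader, thus gave -0.12 and 0.22 beside -0.22 and -0.26 for RFC1 in wild type and mutant S. Of 7 translesion and polymerase delta genes, POL31 (0.46 and 0.24) and POL32 (0.42 and 0.40) rose in S, and REV1 fell (-1.20 and -0.95). REV7 fell in mutant G1 (-0.59) and in wild type S (-0.36). The list had 1 up in wild type G1, 1 down in mutant G1, 2 up and 2 down in wild type S, and 2 up and 1 down in mutant S.

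Of 8 genes for ubiquitin supply, other Rad6 partners and PCNA deubiquitination, the polyubiquitin gene UBI4 rose in all 4 MMS comparisons, at 2.19 and 2.05 in G1 and 1.92 and 1.88 in S (wild type, then mutant). UBP10, whose product removes ubiquitin from PCNA, fell in all 4, at -0.69, -0.47, -0.82 and -0.74. BRE1, the ligase through which Rad6 modifies histone H2B, rose in wild type G1 (0.41) and fell in wild type S (-0.54). UBR1, the ligase with which Rad6 acts in protein turnover, rose in mutant G1 (0.77) and in S (0.58 and 0.66). The counts were 2 up and 1 down in every MMS comparison except wild type S, with 2 up and 2 down. The list medians were 0.13 and -0.31 in G1 and -0.60 and -0.37 in S (wild type, then mutant).

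The 10 other genes of the SUMO cycle were called in both directions. In wild type G1, where UBC9 and SIZ1 fell, the genes of the SUMO-activating enzyme AOS1 (0.53) and UBA2 (0.51) and of the SUMO protease ULP1 (0.41) rose. SLX5, a SUMO-targeted ubiquitin ligase gene, and ULP2, a SUMO protease gene, fell there (-0.45 and -0.32). In mutant G1 NFI1, the paralog of SIZ1, rose (0.43) and the protease gene WSS1 fell (-0.49). In S, 1 rose and 2 fell in each strain: NFI1 at 0.37, ULP2 at -0.64 and WSS1 at -0.38 in wild type, and ULP1 at 0.36, SLX5 at -0.60 and ULP2 at -0.42 in the mutant.

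In untreated G1, 9 of the 59 genes of these lists were higher in the mutant and 1 was lower (12.1% and 9.31% of all genes). The higher ones were RLF2 (0.69), RAD27 (0.51), CLB6 (0.50), BRE1 (0.44), PRI2 (0.42), SMC3 (0.39), ECO1 (0.34), ULP1 (0.29) and POL32 (0.29). The lower one was NFI1 (-0.40), the paralog of SIZ1. In G1 with MMS, RFC1 (0.28) was higher and REV7 (-0.55), PRI2 (-0.49), SMC3 (-0.47) and ULP1 (-0.29) were lower (1 and 4 of 59, beside 4.54% and 5.25% of all genes). PRI2, SMC3 and ULP1 were thus called in opposite directions in G1 with and without MMS, as was ELG1.

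In untreated S, 5 of 59 were higher and 7 were lower (9.23% and 11.5% of all genes). The higher ones were CLB6 (0.40), NFI1 (0.38), POL1 (0.33), RRM3 (0.31) and RFC1 (0.25). The lower ones were REV7 (-0.76), ULP1 (-0.64), REV3 (-0.58), BRE1 (-0.39), RAD24 (-0.37), APN2 (-0.35) and RLF2 (-0.28). In S with MMS limma called 0 of 59 either way (0.0246% and 0.0982% of all genes), and 2 had an unadjusted p under 0.05. Because the arrays of that comparison opposed each other, this does not show that the strains were alike. With the block 23 of 59 were called in untreated G1, 19 in G1 with MMS, 23 in untreated S and 1 in S with MMS. NFI1 and SIZ1 were both lower in untreated mutant G1 cells, at -0.40 and -0.44, and gave 0.38 and 0.16 in untreated S.

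Within the set, likeness was described by Pearson's r over the 8 comparison means, which share conditions and so are not independent. The highest values were 0.84 for POL30 with UBC13, 0.81 for UBC9 with SIZ1 and 0.81 for RAD18 with ELG1. The lowest were -0.77 for RAD6 with SIZ1 and -0.72 for RAD18 with SIZ1. Among all 4073 genes the closest to POL30 were CAT2 (0.983), UGA2 (0.976), CHO1 (0.971), SLX1 (0.967) and HTD2 (0.967). UBC13 came closest to BOP2 (0.992) and UBP15 (0.986), ELG1 to COX17 (0.988) and MSS1 (0.986), SIZ1 to NDJ1 (0.988) and GAL80 (0.985), and UBC9 to FLX1 (0.980) and TEF4 (0.979).

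The nearest genes of the others had similar values. RAD6 was closest to SEC65 (0.988) and TPT1 (0.977), RAD18 to SPR28 (0.979) and HFM1 (0.951), and RAD5 to MTG1 (0.953) and SWI4 (0.952). MMS2 was closest to GPI2 (0.942) and ABM1 (0.928), and SRS2 to MED1 (0.922) and YHP1 (0.895). With 8 points and 4073 genes compared, these pairs are a description only. For no gene of the set was another of the 10 among its closest named genes.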

How the data were processed

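The deposited values are log2 ratios per spot, made by the authors with R 3.1.1 and limma 3.0 per the submitters' processing notes. How background and dyes were corrected within arrays is not given in the sources used here. Spot intensities were not used, so no filter on dim spots was possible. Row numbers of the 15744 spots did not follow the platform table, since duplicate spots matched by number correlated at -0.049 to 0.0278. The ordering with the best agreement of duplicate spots in 2036 genes was taken from 15552 tried (score 1.09, the next 0.0372). In the other 2037 genes duplicates then correlated at 0.683 to 0.949 (median 0.919), and every gene name rests on this ordering. Of the spots, 8152 carried 1 symbol and 7592 none. Symbols were updated for 125 of 4073 genes through RefSeq.

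Array medians were subtracted, spots of a gene averaged (the spots of the 10 genes lay within 0.34 of each other in a comparison) and Cy3 arrays multiplied by -1. One limma 3.58.1 fit (R 4.3.3) had 8 coefficients for 16 arrays (8 residual and 1.74 prior degrees of freedom), with Benjamini-Hochberg adjustment over all genes and a threshold of 0.05. The script was tested on simulated data. Same-numbered arrays of different comparisons deviated together from their comparison means (r of 0.619 to 0.892 over 28 pairs), so the number was held as a block in a second fit (median error 0.0929 against 0.149). Settings tried are named in the closing section. The genes named are the 10 members, MAG1, RNR3, up to 4 called genes by size per list and comparison, and the nearest 5 (POL30) or 2 genes by correlation. Members and lists were chosen with earlier results of these data known.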

Additional observations from a re-analysis of the deposited data

Results flagged for a closer look

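The 11 values here each show a difference of 2 responses that passed the test of that difference, and no explanation was tested. In wild type the MMS response in S minus that in G1 was 0.71 for UBC9, 0.72 for SIZ1 and -0.29 for ELG1. In esa1-L254P it was 0.81 for ELG1, the opposite sign of wild type. Averaged over strains it was 0.37 for SIZ1 and 0.26 for ELG1. The mutant response minus the wild type response, as the mean of both routes, was 0.38 for SIZ1 and -0.73 for ELG1 in G1. In S it was -0.29 for SIZ1 and 0.36 for ELG1, so both genes changed sign between phases, in opposite order. The strain ratio of SIZ1 in S minus that in G1 was 0.28.

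Of the 11, the ones that kept their call in every setting tried were ELG1 between strains in G1 and in S, ELG1 between phases in the mutant, SIZ1 between strains in G1 and SIZ1 between phases in wild type. SIZ1 between strains in S and SIZ1 between phases over both strains each lost it in 1 setting. The differences between strains were not refitted without all the strain arrays with MMS, which enter them. Fitting each comparison alone was not among the settings tried for any of the 11 differences. It leaves 1 residual degree of freedom, so a call lost in it need not mean an unsteady value. It ended every single-comparison call of ELG1, and that of SIZ1 between strains in untreated G1. The SIZ1 call in wild type G1 with MMS was kept there.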

How the results depend on the processing

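No called value of the 10 genes changed sign under any setting. Held as a replicate block, the replicate number moved the called members from 2 to 5, 2 to 4, 2 to 6 and 3 to 7 (MMS in wild type G1, mutant G1, wild type S and mutant S), from 3 to 5, 1 to 2 and 2 to 4 (strain ratio in untreated G1, G1 with MMS and untreated S), from 1 to 2 and 2 to 4 (S minus G1 in the mutant and over both strains), from 2 to 6 and 2 to 5 (mutant minus wild type response in G1 and S), from 4 to 7 (mean MMS response) and from 0 to 1 (mean strain ratio); it ended no call. The additive fit gave 4, 4, 4 and 6 in the MMS comparisons, 4 for the mutant minus wild type response in S and 1 for the mean strain ratio.

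Fitted alone, a comparison called 0 in mutant G1 and mutant S with MMS and in the strain ratios of untreated G1, G1 with MMS and untreated S. Equal spread gave 1 in mutant G1, wild type S and mutant S with MMS, quantile normalization gave 1 in wild type G1, wild type S and mutant S with MMS and in untreated S, and the last spot alone gave 0 in G1 with MMS and untreated S between strains. S minus G1 in wild type fell from 3 to 1 with the last spot, equal spread and quantiles. Over both strains it fell from 2 to 1 with either spot alone or equal spread and to 0 with quantiles. The phase difference of the strain ratio fell from 1 to 0 in all 4 of those settings, and the mean strain ratio rose to 1 with equal spread or quantiles. Without the 4 strain arrays with MMS (a setting added after seeing the data), untreated S between strains gave 1. In the MMS comparisons that setting added calls of POL30 in mutant S (adjusted p = 0.00746), UBC13 in wild type G1 (0.0239) and UBC9 in mutant G1 (0.0316). It also added UBC13 in S minus G1 of wild type (0.0411).

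Leaving out 1 array at a time gave 1 to 2 calls in wild type G1, 1 in mutant G1, 0 to 1 in wild type S and 0 to 2 in mutant S with MMS. Between strains it gave 1 in untreated G1, 0 to 1 in G1 with MMS and 0 in untreated S. It gave 1 for S minus G1 in wild type, 1 to 2 over both strains and 0 for the phase difference of the strain ratio. Robust moderation and a filter on spots within 0.5 of each other changed none of the 80 calls. With 2 arrays a comparison and no intensities used, dim spots could not be told from small changes.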
